A study of Homo sapiens with 24 samples.

Results

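Levels of 9 genes of the ventral forebrain and of neurons that release GABA were examined, out of 61544 genes listed in the organoid count table. They are GAD1, GAD2 and SLC32A1, the genes of GABA synthesis and vesicular loading, and the homeobox transcription factors DLX1, DLX2, DLX5, DLX6, GSX2 and NKX2-1. The genes were chosen by their measured levels in these same organoid libraries, where they lay lower with both KDM2A hairpins than with the scrambled hairpin, so those 2 comparisons are described and not tested here. The comparison between the 2 hairpins, which the choice did not use although it rests on the same hairpin libraries, is the one tested for them. The NPC count table, which lists 10221 genes, holds 2 of the 9, DLX5 and DLX6.

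RNA was measured by poly(A)-selected sequencing in derivatives of the human embryonic stem cell line H9, grown either as neural progenitor cells (NPCs) or as cerebral organoids collected at day 30. Every group was infected with lentivirus at the stem cell stage and selected with puromycin at 1 µg/ml. The NC group carried a scrambled short hairpin RNA, and the sh1 and sh4 groups each carried a different hairpin against KDM2A, a histone H3K36 demethylase. There were 3 organoid libraries and 5 NPC libraries in each group. Nothing in the labels tells if the libraries of a group are separate cultures or organoid batches, or if a knockdown line is 1 clone, so p-values cover the spread among these samples alone, which may be technical.

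In the ventral telencephalon, called the subpallium, progenitors in the ganglionic eminences express GSX2 and, in the medial part, NKX2-1, whose onset needs Hedgehog signals. DLX1 and DLX2, and then DLX5 and DLX6, act in the daughter cells and switch on GAD1 and GAD2, which make GABA from glutamate, and SLC32A1, the transporter that loads GABA into synaptic vesicles. These cells become cortical interneurons and the projection neurons of the striatum, while the dorsal telencephalon makes glutamatergic neurons.

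The DLX genes stand in convergent pairs. By GENCODE release 29 (GRCh38), DLX1 spans 172084740 to 172089677 of chromosome 2 (plus strand) and DLX2 spans 172099439 to 172102900 (minus strand), 9.76 kb apart. DLX6 spans 97005548 to 97011039 of chromosome 7 (plus strand) and DLX5 spans 97020392 to 97024950 (minus strand), 9.35 kb apart. On the plus strand, GAD1 spans 170813213 to 170861151 of chromosome 2, GAD2 spans 26216307 to 26304558 of chromosome 10, SLC32A1 spans 38724462 to 38729372 of chromosome 20 and GSX2 spans 54099523 to 54102505 of chromosome 4. On the minus strand, NKX2-1 spans 36516392 to 36521149 of chromosome 14. Exons of an antisense gene, AC007405.2, cover 5.68% of the GAD1 exon length, and exons of NKX2-1-AS1 cover 12.7% of that of NKX2-1. No source used here gives the strand setting of the counting, so reads in those stretches cannot be assigned to 1 strand.

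RefSeq promoter windows (GRCh38.p14, 250 bases before to 50 bases after the start) were found for 8 of the 9 genes. The windows of DLX1 and DLX2 are shown because that neighbouring pair fell less with sh1 than with sh4, those of GAD1 and GAD2 because they are the paired genes of GABA synthesis, and that of GSX2 because it differed most between sh1 and sh4. They are printed 5′ to 3′ along the gene, and capitals mark matches to 3 motifs searched on both strands. The first motif was the homeodomain core, spelled TAATTA. The E-box of proneural factors was searched as CAGCTG. The TATA box was searched by its core letters, TATAAA. No pair of these motifs overlaps in a printed window.
GAD1: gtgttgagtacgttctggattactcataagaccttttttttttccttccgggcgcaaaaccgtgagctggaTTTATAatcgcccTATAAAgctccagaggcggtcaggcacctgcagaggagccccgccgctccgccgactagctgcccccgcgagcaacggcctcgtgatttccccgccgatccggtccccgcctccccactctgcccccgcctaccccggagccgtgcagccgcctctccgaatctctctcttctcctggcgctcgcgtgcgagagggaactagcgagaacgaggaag
GAD2: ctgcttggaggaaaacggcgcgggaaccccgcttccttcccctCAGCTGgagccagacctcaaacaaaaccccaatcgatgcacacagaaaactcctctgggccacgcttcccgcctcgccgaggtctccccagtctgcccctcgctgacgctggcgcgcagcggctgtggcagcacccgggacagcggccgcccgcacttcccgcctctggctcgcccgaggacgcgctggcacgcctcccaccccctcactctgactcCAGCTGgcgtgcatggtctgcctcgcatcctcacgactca
DLX1: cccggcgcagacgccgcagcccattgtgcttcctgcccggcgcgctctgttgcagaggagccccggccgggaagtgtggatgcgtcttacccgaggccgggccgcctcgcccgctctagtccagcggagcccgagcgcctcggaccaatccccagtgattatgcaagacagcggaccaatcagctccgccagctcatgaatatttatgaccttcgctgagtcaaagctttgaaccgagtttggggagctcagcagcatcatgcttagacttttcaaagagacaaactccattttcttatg
DLX2: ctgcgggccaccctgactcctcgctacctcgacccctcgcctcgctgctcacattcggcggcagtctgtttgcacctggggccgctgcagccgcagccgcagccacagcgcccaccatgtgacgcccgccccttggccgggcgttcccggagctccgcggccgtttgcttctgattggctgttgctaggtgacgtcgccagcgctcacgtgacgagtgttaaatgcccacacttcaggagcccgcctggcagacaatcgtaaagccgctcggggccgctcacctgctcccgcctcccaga
GSX2: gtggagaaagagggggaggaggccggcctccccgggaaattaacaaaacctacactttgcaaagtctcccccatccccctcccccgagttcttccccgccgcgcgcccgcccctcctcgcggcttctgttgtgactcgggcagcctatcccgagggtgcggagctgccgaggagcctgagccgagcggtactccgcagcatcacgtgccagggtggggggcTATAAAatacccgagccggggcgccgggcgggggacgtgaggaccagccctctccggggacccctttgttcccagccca
The windows are at chr2:170816637-170816936 (GAD1), chr10:26216122-26216421 (GAD2, the first of 2 windows), chr2:172085257-172085556 (DLX1), chr2:172102851-172103150 (DLX2, minus strand) and chr4:54099913-54100212 (GSX2). TATAAA matched in GAD1 (2 sites, 1 on each strand) and GSX2 (1 site), against 11.5% of all 35116 RefSeq promoter windows of the same length. CAGCTG, which reads the same on both strands, matched at 2 sites in the first GAD2 window, against 17.9% of all windows. TAATTA matched in none of the 5 printed windows and in 1 of the 2 windows of NKX2-1, against 4.84% of all. A match is only a match of letters. The windows of the 8 genes held 11 to 38 CpG pairs, with the fewest in a window of NKX2-1 and the most in that of SLC32A1, against a median of 14 over all windows.

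The organoid libraries held 15.9 to 18.9 M counts and the NPC libraries 12.7 to 20.2 M counts of the listed genes. In the organoids, KDM2A itself gave no check of the labels: the log2 fold change was 0.14 with sh1 (95% interval -0.02 to 0.29) and 0.01 with sh4 (-0.14 to 0.16), so the groups are called libraries labelled sh1 and sh4. In the NPCs KDM2A was lower, with log2 fold changes of -1.02 for sh1 and -0.97 for sh4. The sh4 organoid libraries stood apart, with 5.05 to 6.02% of counts from mitochondrial transcripts against 3.07 to 3.50% in the others and 11.8 to 14.4% of counts in the 10 most abundant genes against 5.38 to 7.41%. Their most abundant gene was AFP in replicate 1 and COL3A1 in replicates 2 and 3. Levels below are in CPM, that is, counts set to the same total in each library after TMM scaling, and the values of 3 libraries are given in the order of replicates 1, 2 and 3, which carries no meaning across groups.

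The organoids labelled NC expressed the whole set. GAD1 was at 86.1, 67.8 and 70.7 CPM, GAD2 at 37.0, 27.5 and 30.8 CPM and SLC32A1 at 30.4, 20.2 and 22.2 CPM. Per kilobase of exon, the NC means ran in the order DLX1 (27.1 CPM per kb), DLX5 (23.6), DLX2 (21.1), GSX2 (18.4), SLC32A1 (9.44), GAD1 (9.09), DLX6 (7.40), GAD2 (5.08) and NKX2-1 (0.517). The libraries of neighbours overlapped from DLX1 to GSX2 and from SLC32A1 to DLX6, and did not overlap between GSX2 and SLC32A1, DLX6 and GAD2, or GAD2 and NKX2-1. NKX2-1, the medial ganglionic eminence gene, was thus the lowest of the 9 per kilobase already in NC, detected with 89 counts over 3 libraries. LHX6, the factor downstream of NKX2-1 in the same lineage and named here after its values were seen, was also low in NC (0.69 ± 0.12 CPM, SD, n = 3). Unlike NKX2-1, LHX6 was called with neither hairpin, with log2 fold changes of -0.02 with sh1 and -0.75 with sh4 (edgeR adjusted p = 0.97 and 0.12). Per kilobase, GSX2 and each DLX gene lay well above NKX2-1 in NC.

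With both hairpins all 9 genes lay lower than with NC in every library. The 9 were called lower (adjusted p under 0.05 and a log2 fold change of at least 1 in size, edgeR's quasi-likelihood test) with sh1 and with sh4. Of all 19704 genes tested, 7.92% were called lower with sh1, 15.5% with sh4 and 6.18% with both. Every sh1 library below every NC library held for 29.8% of all tested genes, and every sh4 library below every NC library for 36.4%. Since the genes were selected on these comparisons, nothing is read from those counts. All 9 passed the filter on low counts, GAD2, SLC32A1, DLX6 and NKX2-1 through the NC libraries alone. Both comparisons share the 3 NC libraries. The median log2 fold change of the 9 was -5.15 with sh1 and -4.99 with sh4, against 0.02 and -0.01 over all tested genes. In bulk RNA, fewer cells of a type and less RNA per cell cannot be told apart.

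**Figure D1:**
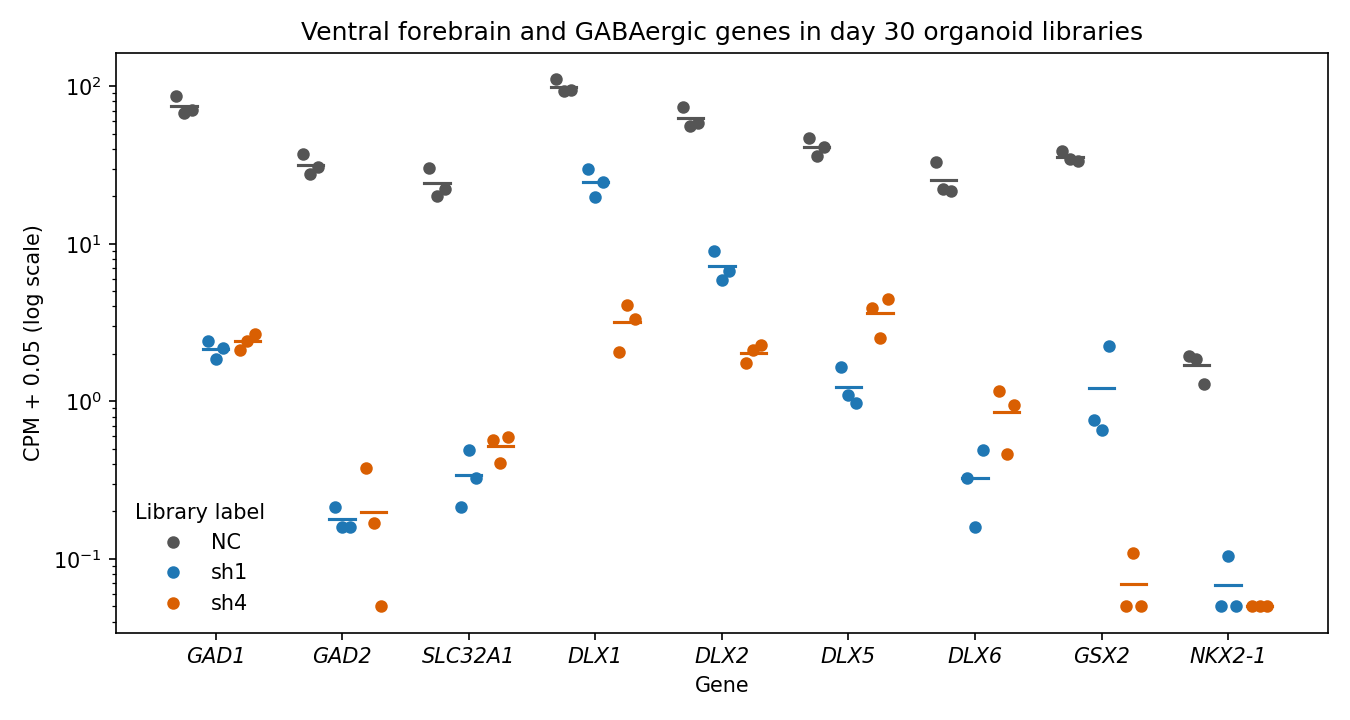
Level of each gene in each organoid library (points, CPM + 0.05 on a log axis), with the mean of each group as a bar and the library label as colour. All sh1 and sh4 points lie below all NC points for each of the 9 genes, DLX1 and DLX2 are higher in sh1 than in sh4, and DLX5 is higher in sh4 than in sh1.

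The genes of GABA synthesis and loading were at 0.40 to 3.15% of their NC means with hairpins. GAD1, which makes most of the GABA of the cell, was at 2.36, 1.81 and 2.14 CPM in the sh1 libraries and at 2.08, 2.35 and 2.64 CPM in the sh4 libraries. That is 2.81% of the NC mean with sh1 and 3.15% with sh4, and log2 fold changes of -5.15 (SE 0.15) and -4.98 (SE 0.15). GAD2, the synaptic form of the enzyme, was at 0.17, 0.11 and 0.11 CPM with sh1 and at 0.33, 0.12 and 0 CPM with sh4, from 7 counts in each group against 1711 counts in NC. Its log2 fold changes were -7.88 (SE 0.40) and -7.73 (SE 0.40). SLC32A1 was at 0.17, 0.44 and 0.27 CPM with sh1 and at 0.52, 0.35 and 0.54 CPM with sh4, with log2 fold changes of -6.34 (SE 0.31) and -5.67 (SE 0.29). The hairpin libraries of GAD1 stayed within 2.42 to 3.52% of the NC mean, and the sh1 and sh4 libraries overlapped each other in all 3 genes.

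Per kilobase the residual GAD1 (0.255 CPM per kb with sh1 and 0.286 with sh4) lay above the residual GAD2 (0.0205 and 0.0236). The count ratio of GAD1 to GAD2 was 2.29 to 2.47 in the NC libraries and 14.3 to 19.5 in the sh1 libraries. In the sh4 libraries it was 6.40 at the lowest, with 1 library at 0 counts of GAD2. These ratios rest on 7 GAD2 counts in each hairpin group and are given without a test.

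DLX1 and DLX2 fell less with sh1 than with sh4. DLX1, at 111, 92.7 and 94.2 CPM in NC, was at 29.6, 19.7 and 24.6 CPM with sh1 and at 2.01, 4.06 and 3.30 CPM with sh4. The sh1 libraries thus kept 24.9% of the NC mean and the sh4 libraries 3.15%, and the 3 groups did not overlap. The log2 fold changes were -2.01 with sh1 (SE 0.19) and -4.98 with sh4 (SE 0.23). DLX2, at 73.8, 55.7 and 58.7 CPM in NC, was at 8.94, 5.82 and 6.69 CPM with sh1 and at 1.69, 2.06 and 2.22 CPM with sh4, or 11.4% and 3.17% of the NC mean. Its log2 fold changes were -3.13 (SE 0.17) and -4.97 (SE 0.20).

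DLX5 and DLX6 went the other way between the hairpins. DLX5, at 46.8, 35.8 and 41.0 CPM in NC, was at 1.59, 1.04 and 0.93 CPM with sh1 and at 3.83, 2.47 and 4.44 CPM with sh4. Its sh1 libraries lay below all of its sh4 libraries, at 2.88% of the NC mean against 8.68%, with log2 fold changes of -5.11 (SE 0.25) and -3.53 (SE 0.23) against NC. DLX6, at 32.9, 22.1 and 21.6 CPM in NC, was at 0.27, 0.11 and 0.44 CPM with sh1 and at 1.10, 0.41 and 0.90 CPM with sh4. The highest sh1 library of DLX6 overlapped the lowest sh4 library. The log2 fold changes against NC were -6.50 (SE 0.40) and -4.99 (SE 0.36).

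The progenitor genes were close to the limit of counting with hairpins. GSX2, which specifies lateral ganglionic eminence progenitors, was at 38.9, 34.6 and 33.2 CPM in NC, at 0.71, 0.60 and 2.19 CPM with sh1 and at 0, 0.06 and 0 CPM with sh4. Replicate 3 of sh1 was the highest of the hairpin libraries. The sh4 group held 1 count in all against 1920 in NC, a ratio of NC to sh4 of 1748 with an exact 95% counting interval of 313 to 69080. The sh1 log2 fold change was -4.92 (SE 0.37), and -5.75 without sh1 replicate 3. NKX2-1, at 1.88, 1.81 and 1.23 CPM in NC, had 1 count with sh1 and 0 with sh4. The ratio of NC to sh1 was 90.3 (exact counting interval 15.8 to 3605), and sh4 was at least 27.0-fold lower than NC against a floor of 3 counts over the group. These intervals and floors cover counting error only.

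Between the 2 hairpins, which the choice of the genes did not use, 5 of the 9 genes passed the test, DLX6 not under every alternative. DLX1, DLX2 and GSX2 were higher in the sh1 than in the sh4 libraries, DLX5 and DLX6 were lower, and the 3 GABA genes and NKX2-1 did not pass the test. Of all tested genes, 7.83% were called higher in sh1 than in sh4 and 11.2% lower. The median log2 difference of the 9 was -0.15, against 0.03 over all tested genes.

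With edgeR and Benjamini-Hochberg adjustment over all tested genes, DLX1 was higher in sh1 by 2.97 on the log2 scale (95% interval 2.46 to 3.47, adjusted p = 5.25e-05). DLX2 was higher by 1.84 (1.37 to 2.31, adjusted p = 0.000189). For GSX2 the count ratio of sh1 to sh4 was 57.4 (exact counting interval 9.95 to 2304) and the adjusted p = 0.00149 in the same edgeR test. DLX5 differed by -1.58 (-2.19 to -0.97, edgeR adjusted p = 0.00133) and DLX6 by -1.52 (-2.69 to -0.35, edgeR adjusted p = 0.0354).

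The DLX6 difference was the least stable of the 5. DLX6 passed the filter on low counts through the NC libraries, and a fit of the sh1 and sh4 libraries alone left it untested, so 12 of 13 alternatives gave it a value. It did not pass without sh1 replicate 1 (-1.51, edgeR adjusted p = 0.0844), sh1 replicate 2 (-1.14, 0.114), sh4 replicate 1 (-1.23, 0.127) or sh4 replicate 3 (-1.42, 0.0902), or with library size alone in place of TMM (-1.28, 0.0545). Its adjusted p ran from 0.00692 to 0.127 over the alternatives. The other 4 differences passed under each alternative run, with log2 values of 2.74 to 3.20 for DLX1, 1.65 to 2.07 for DLX2 and -1.84 to -1.35 for DLX5, and adjusted p up to 0.00108, 0.00213 and 0.00894. For GSX2 the fitted log2 value rests on 1 count in sh4 and ran from 4.57 without sh1 replicate 3 to 7.37 without sh4 replicate 2, the library with that count, with an adjusted p up to 0.00668.

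The GABA genes and NKX2-1 gave no difference between the hairpins that passed the test. GAD1 differed by -0.17 between sh1 and sh4 (95% interval -0.56 to 0.22, edgeR adjusted p = 0.464), so its interval lies within a change of 1. For SLC32A1 the difference was -0.67 (-1.63 to 0.29, edgeR adjusted p = 0.220). The intervals of GAD2 (-0.15, -1.92 to 1.62, edgeR adjusted p = 0.887) and NKX2-1 (1.83, -1.49 to 5.16, edgeR adjusted p = 0.342) span changes of more than 1 in both directions.

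**Figure D2:**
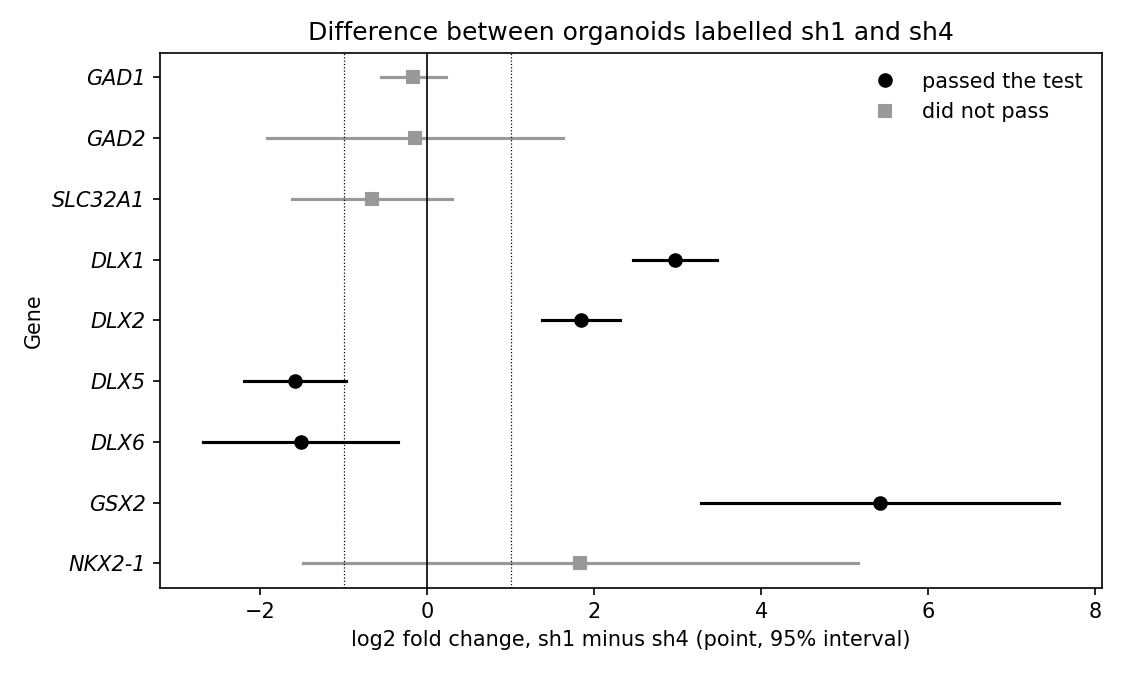
Log2 fold change of sh1 against sh4 in the organoids for each gene, with its 95% interval; dotted lines mark a log2 change of 1 in size, circles passed the test and squares did not. DLX1, DLX2 and GSX2 lie to the right and DLX5 and DLX6 to the left, while GAD1 lies close to 0.

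The order of the genes differed between the groups with these changes. Per kilobase DLX1 was first in NC and in sh1 (6.74 CPM per kb), followed in sh1 by DLX2 (2.41) and DLX5 (0.679), whose libraries did not overlap with those of the gene before. In sh4 DLX5 was first (2.05 CPM per kb), above DLX1 (0.853), and DLX1 overlapped DLX2 (0.670). The count ratio of DLX1 to DLX5 was 2.30 to 2.59 in NC, 18.6 to 26.4 in sh1 and 0.525 to 1.64 in sh4. Within the DLX1 and DLX2 pair, the ratio of DLX1 to DLX2 was 1.497 to 1.663 in NC, 3.31 to 3.68 in sh1 and 1.19 to 1.97 in sh4. The sh1 libraries thus stood outside the range of the others in both ratios, and the sh4 libraries overlapped NC only in the ratio of DLX1 to DLX2.

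DLX6-AS1, a long noncoding RNA of the DLX5 and DLX6 locus on the opposite strand to DLX6, was lower with both hairpins, and its sh1 change was larger than that of any of the 9. It was at 419, 313 and 343 CPM in NC, at 0.44, 1.10 and 0.33 CPM with sh1 and at 2.40, 1.88 and 1.56 CPM with sh4. The log2 fold changes were -9.15 (SE 0.27, adjusted p = 1.4e-07) and -7.53 (SE 0.24, adjusted p = 1.1e-07), and the value of sh1 against sh4 was -1.63 (adjusted p = 0.0061, edgeR's quasi-likelihood test). Its direction between the hairpins was that of DLX5 and DLX6. Its annotated exons share 0 bases with those of DLX6.

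Other subpallial progenitor genes lay lower too. Of 7 genes on that list 6 were tested, and 4 fell with both hairpins, the other 2 being OLIG1, which passed with neither, and OLIG2, which passed with sh4 and not with sh1. Over all tested genes, 6.18% fell and 10.2% rose with both. SIX3 and VAX1, homeobox genes of the anterior and ventral forebrain, fell with log2 fold changes of -2.45 and -4.40 for sh1 and of -3.06 and -2.17 for sh4. VAX1 was lower in sh1 than in sh4 (-2.23, edgeR adjusted p = 0.0017), as were DLX5 and DLX6. GSX1, the paralogue of GSX2, had 50 counts in NC, 3 with sh1 and 0 with sh4. The summed level of the 7 genes was 74.4 to 83.3 CPM in NC, 12.9 to 17.6 in sh1 and 7.85 to 13.2 in sh4.

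Interneuron transcription factors did not move as a block. Of the 17 tested, 5 fell and 3 rose with both hairpins, with a median log2 fold change of -0.02 with sh1 and -0.83 with sh4. SP9, a factor of developing ganglionic eminence neurons, averaged 8.52 ± 1.35 CPM in NC, 0.15 ± 0.21 in sh1 and 0.18 ± 0.10 in sh4 (SD, n = 3 each, edgeR adjusted p = 7.4e-05 and 3e-05). LHX8, SP8 and ST18, named after their values were seen, also fell with both. The 3 that rose were MAF (1.81 and 2.74), NR2F2 (1.44 and 1.04) and SOX6 (1.12 and 1.05, log2 fold changes with sh1 and sh4). All 3 are also expressed outside interneurons. The NR2F2 call with sh4 was lost with library size alone and without NC replicate 1 or sh4 replicate 2, where its value went down to 0.77. The SOX6 call with sh1 was lost without sh1 replicate 2 (0.98), and that with sh4 was lost with library size alone and without NC replicate 3 or sh4 replicate 3, with values down to 0.78.

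Striatal projection neuron genes split in the same way, with 4 of 16 rising and 4 falling with both hairpins. TAC1, the precursor of substance P, averaged 41.4 ± 2.64 CPM in NC, 1.68 ± 0.33 in sh1 and 0.61 ± 0.41 in sh4, and PPP1R1B, which encodes the dopamine signalling protein DARPP-32, fell from 6.48 ± 0.87 to 0.64 ± 0.27 and 0.56 ± 0.26 (SD, n = 3 each). RARB, a retinoic acid receptor, rose from 5.31 ± 0.22 to 57.5 ± 9.41 and 31.8 ± 5.68 CPM, and DRD2, a dopamine receptor, from 5.09 ± 0.68 to 29.6 ± 5.13 and 11.7 ± 2.13 CPM. The DRD2 call with sh4 was lost with library size alone (0.94 on the log2 scale). PENK and DRD1, which rose, and BCL11B, which fell, are named after their values were seen.

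Neuropeptides and calcium-binding proteins of interneurons gave 3 genes that rose and 1 that fell with both hairpins among 12 tested of 15. NPY rose from 2.01 ± 0.45 CPM to 13.3 ± 4.99 with sh1 and 24.5 ± 5.73 with sh4, CALB1 from 5.01 ± 1.06 to 19.1 ± 3.43 and 14.5 ± 7.95, and TAC3 from 2.86 ± 0.52 to 10.3 ± 1.91 and 7.82 ± 0.20 (SD, n = 3 each). The sh4 value of CALB1 came under the fold threshold without sh4 replicate 3 (0.99). CALB2, calretinin, fell in both (log2 fold changes -2.47 and -1.29). SST, the somatostatin gene, named after its values were seen, rose with sh1 (1.71, edgeR adjusted p = 0.0003), and its sh4 value was 0.93. Every hairpin library lay above every NC library for NPY, SST and CALB1. The share of all tested genes with that separation was not counted, so nothing is read from it.

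Of the genes that move and break down GABA, 1 of 12 rose and 1 fell with both hairpins. SLC6A13, the transporter GAT2 of meninges and liver, averaged 0.37 ± 0.30 CPM in NC, 4.44 ± 1.94 in sh1 and 10.2 ± 2.45 in sh4 and rose with both (SD, n = 3 each). ABAT, the enzyme that breaks GABA down, named after its values were seen, had log2 fold changes of -1.07 with sh1, which passed, and -0.91 with sh4, which did not. The summed level of the 12 genes was 1218 to 1264 CPM in NC, 1045 to 1138 in sh1 and 1374 to 1640 in sh4, so the list as a whole had no loss like that of GAD1, GAD2 and SLC32A1.

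The Hedgehog genes upstream of ventral identity gave no fall as a list. Of 11 tested of 12, 1 rose and 1 fell with both hairpins, with median log2 fold changes of 0.26 and 0.65. HHIP, a target and inhibitor of Hedgehog signalling, rose (log2 fold changes 1.62 and 1.41), and NKX6-1, a ventral progenitor factor of the caudal neural tube, fell (-1.06 and -2.23). The sh1 call of NKX6-1 was lost in 6 of 13 alternatives. SHH, the ligand, named after its values were seen, was at 0.50, 3.79 and 5.16 CPM in NC, at 7.18, 24.1 and 9.70 CPM with sh1 and at 11.4, 8.29 and 5.58 CPM with sh4. Every hairpin library was above every NC library, a separation whose share over all tested genes was not counted. SHH passed with sh1 (2.12, edgeR adjusted p = 0.026) and not with sh4 (1.42, 0.085). PTCH1, the Hedgehog receptor and target, had values of -0.14 and -0.10.

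**Figure D3:**
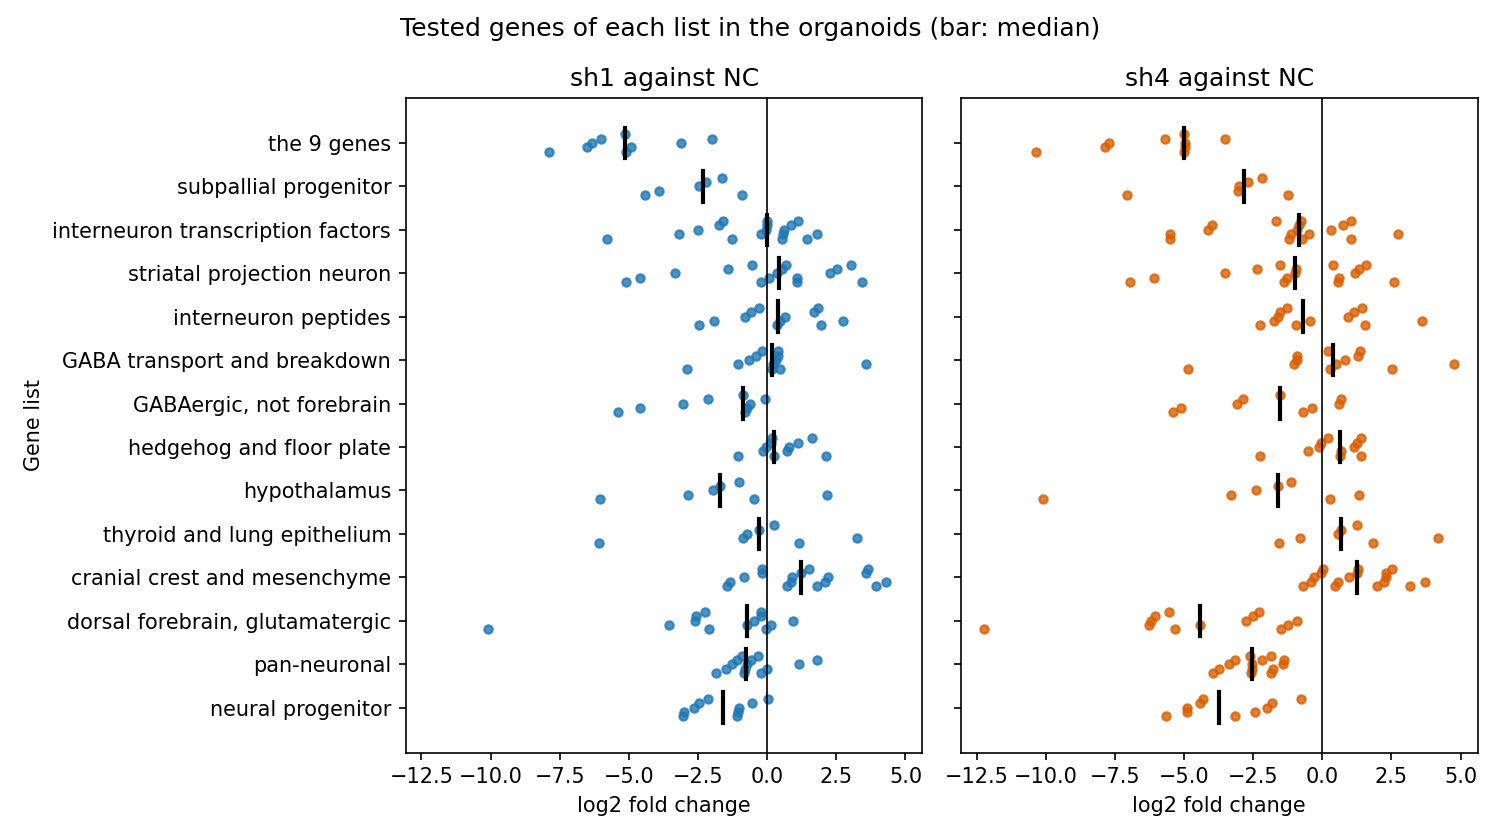
Log2 fold change against NC of each tested gene (points) of the 9 genes and 13 other gene lists in the organoids, for sh1 on the left and sh4 on the right, with the median of each list as a bar. The 9 genes and the subpallial progenitor list lie to the left with both hairpins, the cranial crest and mesenchyme list to the right (medians 1.23 and 1.26), and the dorsal forebrain list is further left with sh4 (median -4.41) than with sh1 (-0.75).

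Markers of other cells that could carry or replace these genes were read from lists. GABAergic neurons outside the forebrain had 9 of 13 genes tested, of which 2 fell and 0 rose with both hairpins, and summed levels of 57.9 to 59.8 CPM in NC, 32.3 to 35.1 in sh1 and 31.5 to 37.1 in sh4. SLC6A5, the glycine transporter of brainstem and spinal neurons, fell with sh1 (log2 fold change -4.60) and had 3 counts with sh4 against 151 in NC. LBX1 fell with sh1 (-5.41), and its sh4 call (-2.87) was lost in 7 of 13 alternatives. Hypothalamic genes, where NKX2-1 and DLX genes are also expressed, had 7 of 16 tested, of which 3 fell and 1 rose, and NKX2-4 was at 0 in every library. OTP had 414 counts in NC and 0 with sh4, at least 126-fold lower, while TBX3 rose (log2 fold changes 2.17 and 1.34). FEZF1 (-1.01 and -1.58) and FOXB1 (-1.71 and -2.41) fell, and their sh1 calls were lost in 3 and 4 of 13 alternatives. With sh1 5 of the 7 were called lower and with sh4 4, and TBX3, which is also expressed outside the hypothalamus, was the one called higher. The summed level of the list was 61.5 to 73.6 CPM in NC, 126.9 to 164 in sh1 and 77.5 to 96.2 in sh4, of which TBX3 made up 21.3 to 36.9, 109.8 to 149 and 65.1 to 82.4 CPM.

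Thyroid and lung epithelium, the other tissues that express NKX2-1, had 7 of 12 genes tested, of which 1 rose and 1 fell with both hairpins. The surfactant genes SFTPB and SFTPC, defining markers of lung epithelium, were at 0 in every library. FOXA1, an endodermal and floor plate factor, rose (3.24 and 4.19), and SCGB3A2, an airway gene, had 91 counts in NC and 1 with sh1, and its sh4 value was -1.55, a call lost without NC replicate 3 or sh4 replicate 2.

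A list of cranial neural crest, ectoderm and mesenchyme, tissues of the head that express DLX5 and DLX6, gave 7 genes that rose and 0 that fell with both hairpins among 17 tested of 18. The crest markers TFAP2A (log2 fold changes -0.18 and -0.30), TFAP2B (-0.20 and -0.05) and SOX10 (1.51 and -0.42), named after their values were seen, passed with neither hairpin. DLX3 and TP63, genes of ectoderm, were called lower with sh1 (-1.46 and -1.34), and TP63 was called higher with sh4 (2.32). For the whole list the summed level was 157 to 250 CPM in NC, 504 to 620 in sh1 and 382 to 510 in sh4, against all 9 genes of the set at 358 to 459, 29.7 to 43.8 and 11.56 to 14.03 CPM. RUNX2, a bone factor, and HAND2, TWIST1 and MSX2, factors of mesenchyme, rose with both. RUNX2 rose from 1.34 ± 0.33 CPM to 16.9 ± 2.58 and 17.7 ± 4.08, and HAND2 from 23.7 ± 5.68 to 108 ± 14.9 and 136 ± 21.4 (SD, n = 3 each). TWIST1 (log2 fold changes 4.30 and 3.19) and MSX2 (1.23 and 1.26) followed, the sh4 call of MSX2 being lost with library size alone (0.99). DLX3, a DLX gene of ectoderm named after its values were seen, was lower in sh1 than in sh4 (-1.90, edgeR adjusted p = 0.0022), the same direction as DLX5. The part of these cells in the residual DLX5 and DLX6 was not tested.

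Dorsal forebrain and glutamatergic genes separated the hairpins. Of 13 tested of 15, 6 fell and 0 rose with both, 6 fell with sh1 and 11 with sh4. PAX6, NEUROG2 and EOMES, genes of cortical progenitors, fell with log2 fold changes of -3.56, -2.62 and -2.11 for sh1 and of -4.41, -6.19 and -6.06 for sh4. SLC17A6 and SLC17A7, the vesicular glutamate transporters and named after their values were seen, had log2 fold changes of 0.12 and -0.05 with sh1 (edgeR adjusted p = 0.86 and 0.94) and of -2.29 and -2.77 with sh4 (edgeR adjusted p = 0.0044 and 0.0020). Both were higher in sh1 than in sh4 (2.41 and 2.72, edgeR adjusted p = 0.0056 and 0.0042).

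Levels of pan-neuronal and neural progenitor genes differed between the labels, which in bulk RNA does not separate cell number from RNA per cell. Of 14 pan-neuronal genes, 2 fell with sh1, 1 rose with sh1 and 14 fell with sh4. Of all tested genes, 7.92% were called lower with sh1 and 15.5% with sh4. The summed level of the 14 was 3837 to 4267 CPM in NC, 2701 to 3306 in sh1 and 303 to 1256 in sh4. MAP2, a dendritic protein (log2 fold changes -1.85 and -3.94), and ELAVL3, an RNA-binding protein of neurons (-1.50 and -3.72), fell with both, the sh1 call of ELAVL3 being lost in 7 of 13 alternatives. The gene that rose with sh1 was the neurofilament gene NEFM (1.81), named after its values were seen. Of 10 neural progenitor genes 8 fell and 0 rose with both, against 6.18% and 10.2% of all tested genes. SOX1, SOX3, HES5 and PTPRZ1 fell with log2 fold changes of -2.64, -3.04, -3.02 and -2.14 for sh1 and of -4.30, -4.43, -5.65 and -4.90 for sh4.

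Set against pan-neuronal counts, the GABA genes were still low in both hairpin groups. GAD1, GAD2 and SLC32A1 together gave 37.37, 30.09 and 28.98 counts per 1000 counts of the 14 pan-neuronal genes in the NC libraries. The sh1 libraries gave 0.81, 0.87 and 0.76 and the sh4 libraries 9.64, 2.25 and 5.31, so every sh4 library lay between the sh1 and the NC libraries. The 4 DLX genes gave 50.5 to 64.3 in NC, 9.88 to 12.2 in sh1 and 7.17 to 28.5 in sh4, where sh1 and sh4 overlapped. For SLC17A6 and SLC17A7 the values were 6.91 to 10.6 in NC, 11.6 to 13.8 in sh1 and 3.64 to 11.2 in sh4. The sh4 library with the lowest pan-neuronal sum, replicate 1, had the highest share of GABA and DLX genes. Without it the sh4 libraries gave 2.25 and 5.31 for the GABA genes. These ratios are descriptions with no test, and the list of neuronal genes cannot show which neurons held the counts.

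**Figure D4:**
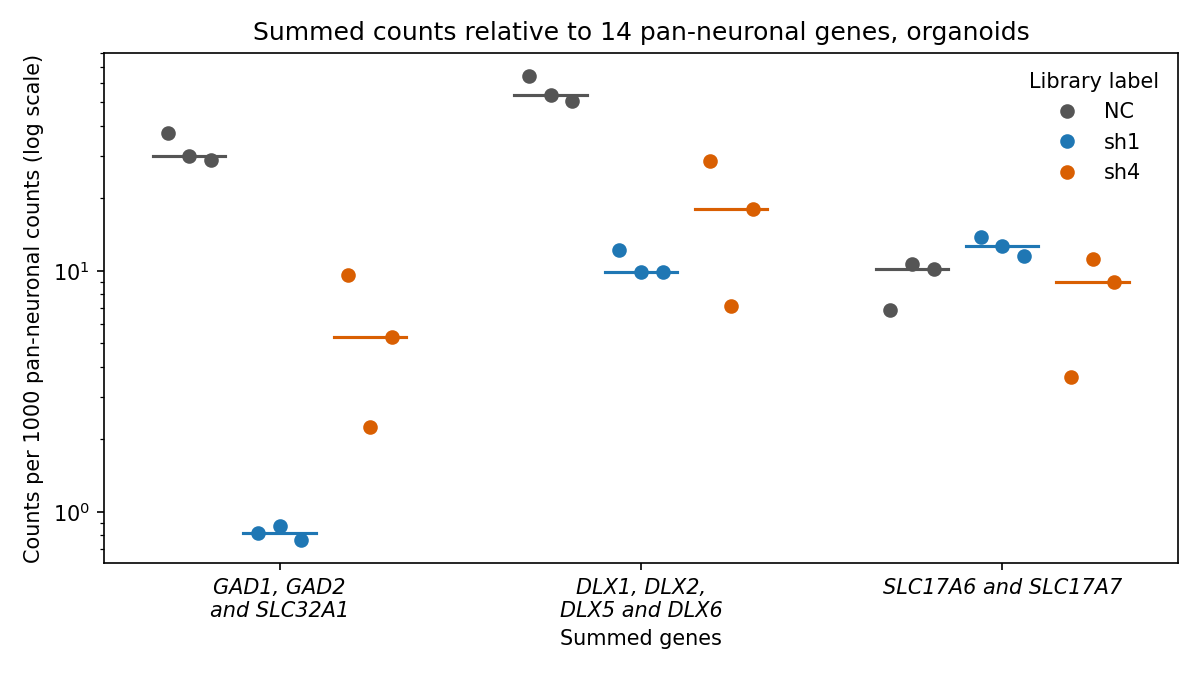
Summed counts of the GABA genes, the DLX genes and the vesicular glutamate transporters per 1000 counts of 14 pan-neuronal genes in each organoid library (points, log axis), with the median of each group as a bar. The GABA genes are at 28.98 to 37.37 in NC and at 0.76 to 0.87 in sh1, while the glutamate transporters are at 6.91 to 10.6 and 11.6 to 13.8.

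In the NPCs DLX5 and DLX6, the 2 genes listed there, were at the limit of counting. Of the 9860 genes tested there, 99.3% differed between sh1 and NC at an adjusted p under 0.05 in edgeR, so the listed genes appear to have been selected for that difference. GAD1, GAD2, SLC32A1, DLX1, DLX2, GSX2 and NKX2-1 were not analysed here in the NPCs. DLX5 was at 0.89, 0.93, 0.29, 0.33 and 0.63 CPM in NC, at 0, 0.11, 0.06, 0 and 0.10 CPM with sh1 and at 0.28, 0.16, 0.10, 0.26 and 0 CPM with sh4. DLX6 was at 0.31, 0.36, 0.07, 0.17 and 0.16 CPM in NC, had 2 counts with sh1 against 20 in NC (ratio 10.1, exact counting interval 2.44 to 88.6) and 4 with sh4. For DLX5 every sh1 and sh4 library lay below every NC library, narrowly for sh4 (0.28 CPM at the highest against 0.29 in the lowest NC library). The apparent selection of the listed genes favours such a separation, and its share over all NPC genes was not counted, so nothing is read from it. Both genes fell under the filter on low counts, so 0 of the 9 were tested in the NPCs.

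Some genes of the related lists were high enough to be tested in the NPCs. Of all tested NPC genes, 8.48% fell and 4.62% rose with both hairpins. Since the listed NPC genes appear to have been selected for the sh1 to NC difference, a small adjusted p is likely there and none is given. The retinoic acid receptor RARB rose with log2 fold changes of 1.63 and 1.58, the same direction as in the organoids. SOX6 fell (-1.13 and -1.58) and CALB2 rose (2.26 and 4.06), opposite to the organoids.

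The genes whose organoid profile was most like the mean standardised log2 CPM of the 9 were FZD8, C2orf69, USP9X, GRIN2B, EPHB1 and DIRAS2, with Pearson correlations from 0.994 to 0.998 over the 9 libraries. Their likeness is mostly the step from NC to the hairpin labels, which all 9 libraries share, and no p is given. FZD8, a WNT receptor, was at 71.3 to 85.8 CPM in NC, 16.9 to 19.0 in sh1 and 15.4 to 16.8 in sh4. GRIN2B, an NMDA receptor subunit of neurons, was at 19.6 to 27.2, 0.71 to 0.93 and 0.41 to 0.72 CPM. EPHB1, an ephrin receptor, was at 29.3 to 36.5, 6.32 to 7.67 and 5.39 to 6.29 CPM.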

How the data were processed

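The 9 genes, the rule for other named genes and the 14 lists of other genes were chosen with earlier results of these data known. The authors deposited 1 table per system of expected counts, fractional for some genes, since 91.0% of the organoid values and 82.4% of the NPC values were whole numbers. STAR, featureCounts and the build GRCh38.p13 were used, per the submitters' processing notes, and versions, settings and strand are not given in the sources used here. Of the 61544 organoid identifiers, 42085 had a symbol, and the 9 genes were matched by symbol.

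After rounding, edgeR's (4.0.16) filterByExpr with a minimum count of 10 left 19704 organoid and 9860 NPC genes. They were scaled by TMM and fitted per system, with the 3 groups together, by edgeR's quasi-likelihood test (R 4.3.3), with Benjamini-Hochberg adjustment over all tested genes. A call needed an adjusted p under 0.05 and a log2 fold change of at least 1 in size. A standard error is the log2 fold change divided by the square root of F. Low counts were given with exact 95% counting intervals. The code was tested on simulated data.

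From each list up to 4 genes called in the same direction with both hairpins in the organoids were named, those with the smallest larger adjusted p, plus up to 4 NPC genes by the same order and the 6 genes most like the 9 (CPM + 0.05 on a log2 scale). The alternatives were DESeq2 1.42.0, its size factors, library size alone, no filter, unrounded counts, only the compared groups, the replicate number as a block and leaving out each library. Some genes that the rule picked are not reported here, and the counts over their lists include them.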

Additional observations from a re-analysis of the deposited data

Results flagged for a closer look

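Each result here concerns a gene of a related list whose libraries moved one way in the organoids and the opposite way in the NPCs under the same hairpin, every hairpin library lying on one side of every NC library. The difference between the systems was not tested. The listed NPC genes appear to have been selected for the sh1 to NC difference, which makes a separation from NC likely there. The share of all genes that reverse in this way was not counted, so these genes are not shown to be unusual. NR2F2, a factor of caudal interneurons and of mesenchyme and vessels, had log2 fold changes of 1.44 with sh1 and 1.04 with sh4 in the organoids and of -0.67 and -1.14 in the NPCs. MAF had 2.74 with sh4 in the organoids and -0.72 in the NPCs. SOX6, a factor of medial interneurons and of cartilage, had 1.12 and 1.05 in the organoids and -1.13 and -1.58 in the NPCs. DRD2, a dopamine receptor, had 2.54 and 1.20 in the organoids and -1.99 and -2.55 in the NPCs. NPY, a neuropeptide of interneurons, had 2.72 and 3.60 in the organoids and -2.20 and -3.45 in the NPCs. CALB2, the calcium-binding protein calretinin, moved the other way, with -2.47 and -1.29 in the organoids and 2.26 and 4.06 in the NPCs.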

How the results depend on the processing

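All 9 genes were called lower with sh1 and with sh4 under each of the 13 alternatives, and between sh1 and sh4 4 to 5 genes were called against 5. A fit of the sh1 and sh4 libraries alone left GAD2, SLC32A1, DLX6 and NKX2-1 under the filter on low counts and gave them no value. Of the results for single genes, 338 kept their direction and their side of the threshold, 5 lost the threshold (DLX6 between sh1 and sh4) and 4 changed sign, all 4 uncalled differences between sh1 and sh4 for which the cause was not tested: GAD1 (0.062) and GAD2 (0.074) with library size alone, GAD2 without sh4 replicate 1 (1.03) and NKX2-1 without sh1 replicate 2 (0.0, where both groups are at 0 counts). Without 1 library the sh1 to sh4 value ran from 0.0 to 2.27 for NKX2-1 and from -0.73 to 1.03 for GAD2. Leaving out 1 library gave 3460 to 3776 organoid genes called with sh1 against 3946, 6726 to 7402 with sh4 against 6998 and 3103 to 4148 between sh1 and sh4 against 3748. In the NPCs it gave 1801 to 1944 against 1815, 1774 to 1922 against 1786 and 454 to 477 against 454.

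Library size alone moved the median organoid log2 fold change over all genes from -0.01 to -0.28 with sh4 and from 0.03 to 0.26 between sh1 and sh4, and the share of higher calls from 56.4% to 43.3% and from 41.2% to 57.3%. In the NPCs that share moved from 34.3% to 23.7% with sh1, and from 36.2% to 26.7% with sh4, a smaller move. The replicate numbers share no stated origin, and their deviations gave no pairing throughout: same-numbered libraries correlated at -0.16 to 0.04 in the organoids, and in the NPCs at 0.181 to 0.393 for numbers 1 and 5 and at -0.10 to 0.215 for numbers 2, 3 and 4. Not every library correlated best with its own number. With the replicate number as a block, 3771, 6899 and 3600 organoid genes and 1818, 1789 and 460 NPC genes were called, and the block changed no call of the 9 genes. Depth limits the GSX2, NKX2-1, GAD2, SLC32A1 and DLX6 values with hairpins, which rest on 64 counts or fewer per group.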
